A study of Rhodotorula toruloides with 36 samples.

Results

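A stretch of scaffold 9 of the *R. toruloides* genome was raised in 2 of 4 engineered strains, BIS18 and BIS14. Its transcripts stood, at the median, at about 2.00 times their WT level. The segment was chosen by its difference from WT in these same libraries, and its members are the 50 entries of scaffold 9 whose start lies from base 880000 to base 1000000, among 580 entries of the scaffold and 8490 native transcripts in all. Coordinates are those of the deposited counts, which were made on the IFO0880 genome. Because the differences from WT chose the segment, they are given here as a description. Counts of calls on them stand beside the share of all transcripts called, and nothing is read from them. Comparisons that did not themselves choose the segment, between the raised strains, between the other strains and between time points in WT, are given with their tests.

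The study asked how *R. toruloides* responds to making α-bisabolene, and counted transcripts in WT and in BIS18, BIS14, BIS3 and GB2 after 18 h and 48 h in synthetic defined medium, for which the labels give glucose. All strains derive from IFO0880. BIS18, BIS14 and BIS3 carry P_GAPDH-BIS, which drives the α-bisabolene synthase BIS from the native GAPDH promoter, and GB2 derives from BIS3 and carries P_ANT-BIS besides. The study gives more copies of P_GAPDH-BIS in BIS14 than in BIS18, and more again in BIS3. Used here were 6 WT libraries at 18 h, 5 at 48 h, where WT replicate 2 was left out by the rule of the segment, and 3 libraries of each engineered strain at each time. Each strain is 1 transformant, so strain and any change that arose in its making cannot be told apart. The libraries of 18 h held 1134992 to 2029181 counts, with a median of 1390360.5, and those of 48 h 1092869 to 3102440, with a median of 2061006. The labels do not say whether replicates were separate cultures, so p-values measure only the spread between these libraries.

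*R. toruloides* is a basidiomycete yeast that accumulates lipids and carotenoids. Cassettes are commonly brought into it by Agrobacterium-mediated transformation, which inserts DNA at places in the genome that are not set beforehand, and where a cassette lies can affect how strongly it is expressed. The insertion sites of these strains were not analysed here. Only RNA counts were used here. The study also resequenced the engineered strains to count cassette copies, and measured proteins. DNA over the segment and proteins were not analysed here. In RNA from a whole culture, more cells with a transcript and more RNA per cell cannot be told apart. The entries carry numbers in place of gene names, so no function is given for any of them.

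In every library of BIS18 and BIS14 the median of the raised transcripts stood well above that of every WT library. The level of a library is the median, over transcripts 16807 to 16835, of the log2 difference of its CPM, which are counts scaled by library size, from the WT mean of that time. At 18 h it was 1.01, 1.05 and 0.94 in the BIS18 libraries. In BIS14 at 18 h it was 0.85, 1.05 and 1.16. The 6 WT libraries lay from -0.04 to 0.08 at that time, without overlap with either strain. BIS3 gave 0.07, -0.01 and -0.09, and GB2 0.01, 0.08 and 0.06, all near WT.

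**Figure D1:**
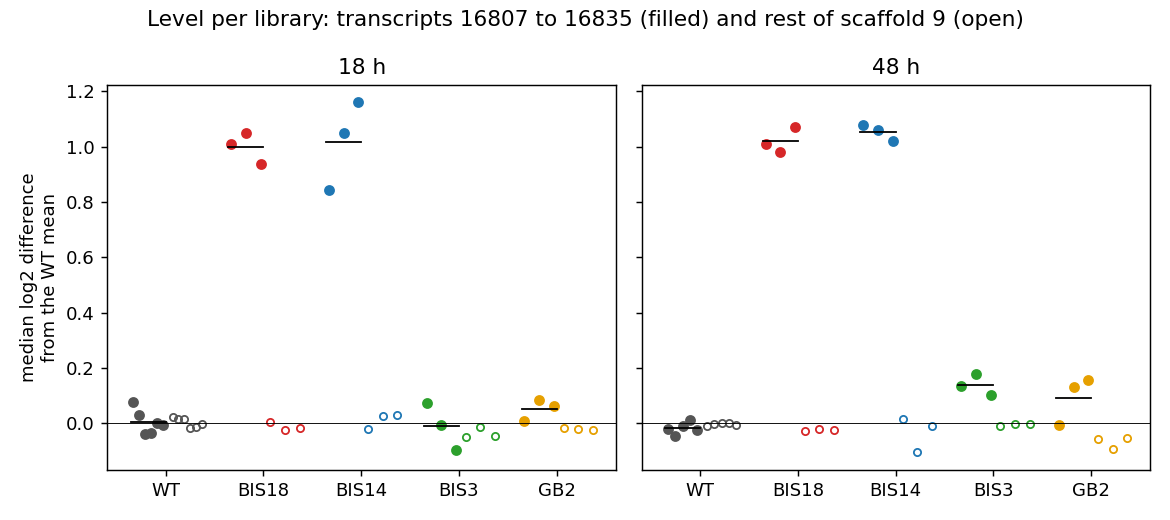
Level of each library at 18 h (left) and 48 h (right), as the median log2 difference of its transcripts from the WT mean of that time. Filled points are transcripts 16807 to 16835 with the group mean as a bar, and open points the rest of scaffold 9. BIS18 and BIS14 libraries lie from 0.85 to 1.16, and those of WT, BIS3 and GB2 from -0.09 to 0.18.

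BIS18 and BIS14 stood apart from the other strains at 48 h as well. BIS18 libraries gave 1.01, 0.98 and 1.07, and BIS14 libraries 1.08, 1.06 and 1.02. BIS3 gave 0.14, 0.18 and 0.10, GB2 -0.01, 0.13 and 0.16, and the 5 WT libraries -0.05 to 0.01. Neither BIS18 nor BIS14 overlapped with the other strains at 48 h, and the 3 BIS3 libraries, though far lower, lay above those of WT. Tested transcripts of scaffold 9 outside the segment had library levels of -0.10 to 0.03 over BIS18 and BIS14 at both times. The same transcripts 16807 to 16835 took 0.648 to 0.710% of all counts in BIS18 at 18 h, 0.588 to 0.606% in BIS14 and 0.305 to 0.352% in WT. At 48 h these shares were 0.665 to 0.674% in BIS18, 0.625 to 0.673% in BIS14 and 0.286 to 0.308% in WT.

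The raised run had sharp ends, less so on the left in BIS14, where 16806 just outside it was also called higher. On the mean profile of both strains and times it reached from transcript 16807 to 16835, at scaffold_9:906611-973571, over 66961 bases with 29 entries. Of these, 26 could be tested at 18 h and 27 at 48 h. The same 2 ends came from BIS18 at 18 h, BIS18 at 48 h and BIS14 at 18 h taken singly, from a running median of 5 transcripts, and from transcripts of at least 10 CPM. On BIS14 at 48 h alone the run began 1 transcript earlier, at 16806, which starts at base 902948. All these profiles were drawn from the same differences, so their shared ends are a description.

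The left end lay between neighbours on the same strand that are only 120 bases apart. Transcript 16807 (906611-907676, + strand) had 97.4, 108 and 97.4 CPM in BIS18 and 110, 98.2 and 117 CPM in BIS14 at 18 h, against 43.3 to 64.4 CPM (median 49.3) in WT. None of those libraries overlapped with WT, and the log2 differences were 0.94 ± 0.12 (SE) in BIS18 and 1.04 ± 0.13 in BIS14. Its outer neighbour 16806 (902948-906490, + strand) had 149, 122 and 142 CPM in BIS18, 168, 165 and 187 CPM in BIS14 and 103 to 136 CPM (median 123) in WT. BIS18 overlapped with WT there and BIS14 did not. The differences of 16806 were 0.19 ± 0.10 in BIS18 and 0.53 ± 0.10 in BIS14 at 18 h, and 0.28 ± 0.09 and 0.58 ± 0.09 at 48 h. In BIS3 and GB2, 16806 differed from WT by 0.37 ± 0.11 and 0.34 ± 0.10 at 18 h. At that time it thus stood above WT without the raised run as well. At 48 h it stood at 0.31 ± 0.09 in BIS3 and at 0.11 ± 0.09 in GB2.

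The right end lay between transcripts facing away from each other, 90 bases apart. Transcript 16835 (972438-973571, - strand) had 131, 120 and 160 CPM in BIS18 and 79.6, 130 and 129 CPM in BIS14 at 18 h, against 37.6 to 49.6 CPM (median 45.2) in WT. It was thus above every WT library, by 1.62 ± 0.19 in BIS18 and 1.35 ± 0.20 in BIS14. The next transcript 16836 (973662-977462, + strand) had 156, 151 and 160 CPM in BIS18, 119, 212 and 229 CPM in BIS14 and 155 to 215 CPM (median 180) in WT. Both strains overlapped with WT, with differences of -0.24 ± 0.16 and 0.03 ± 0.16, and of -0.01 ± 0.09 and 0.20 ± 0.09 at 48 h. From 16835 to 16836 the difference from WT in BIS18 at 18 h thus went from 1.62 to -0.24 on the log2 scale.

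**Figure D2:**
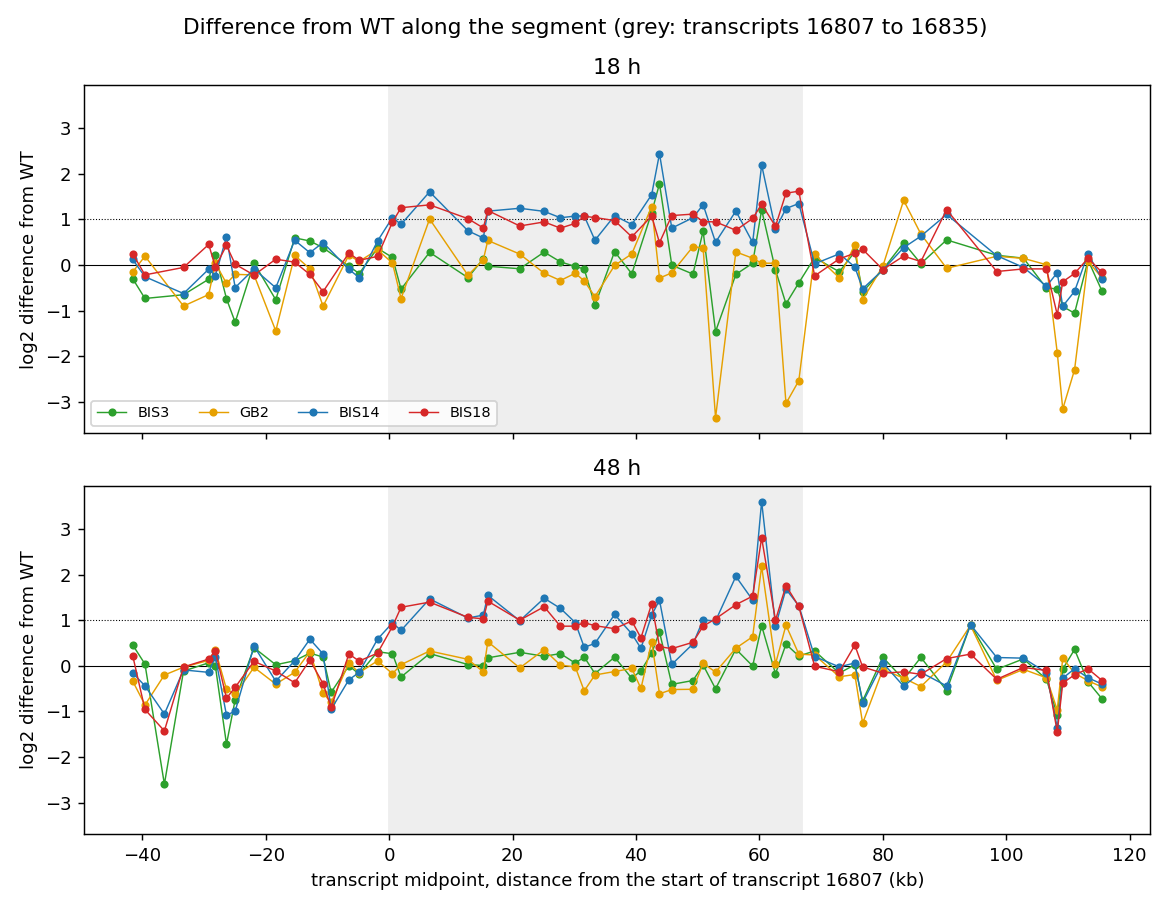
Log2 difference from WT of each tested transcript at 18 h (top) and 48 h (bottom) against the distance of its midpoint from the start of transcript 16807, in kb, with grey marking transcripts 16807 to 16835 and the dotted line a doubling. BIS18 and BIS14 step up to medians of 1.00 and 1.08 inside the grey area at 18 h and return to 0.10 and 0.03 beside it, while BIS3 and GB2 have medians of -0.03 and 0.02 inside it.

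Inside the run the median difference was close to a doubling and close to the same at both times. By summed counts of the run, in log2 and as group means, BIS18 stood at 1.05 and BIS14 at 0.99 at 18 h. Both were higher at 48 h by this measure, at 1.29 and 1.32. The median log2 difference over the run was 1.00 in BIS18 at 18 h (2.00-fold) and 1.00 at 48 h, and 1.08 (2.11-fold) and 1.05 (2.07-fold) in BIS14. All 26 tested transcripts at 18 h and all 27 at 48 h lay above 0 in both strains. In BIS3 the medians were -0.03 and 0.18, and in GB2 0.02 at both times. Tested members outside the run had medians of 0.10 and -0.02 in BIS18 and 0.03 and -0.02 in BIS14, and all transcripts tested had medians of 0.00 and -0.03 in BIS18 and -0.01 and -0.03 in BIS14. Taking the tested members together, run or not, BIS18 had medians of 0.85 and 0.71 and BIS14 of 0.78 and 0.64, where BIS3 had 0.00 and 0.09 and GB2 -0.01 and -0.05. Among runs of as many neighbouring transcripts elsewhere in the genome, the highest median was 0.14 in BIS18 at 18 h and 0.26 at 48 h, and 0.32 and 0.39 in BIS14. In the strains without the raised run such runs reached 0.39 and 0.38 in BIS3, and 0.86 and 0.83 in GB2, the latter on scaffold 10. The segment was picked for its values, so this order is a description.

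The run was raised on both strands, in both parts by position and at high and low levels. At 18 h in BIS18 the 9 tested transcripts on the + strand had a median of 0.94 and the 17 on the - strand 1.02. In BIS14 these were 1.04 and 1.18. Transcripts with WT levels in the upper part, ranked by FPKM, which scales counts by library total and transcript length, had a median of 0.95 in BIS18 and 1.07 in BIS14, and those in the lower part 1.02 and 1.08. At 48 h the parts by level were further apart in BIS18, with 1.29 in the upper and 0.91 in the lower part, while BIS14 had 1.01 and 1.08. At 18 h the 12 transcripts of the first part by position ranged from 0.81 to 1.32 in BIS18 and from 0.54 to 1.61 in BIS14. The other 14 ranged more widely, from 0.49 to 1.62 and from 0.50 to 2.44. The SD of the log2 differences within the run was 0.26 in BIS18 and 0.46 in BIS14 at 18 h, against 0.24 and 0.46 over the native transcripts outside the segment, and 0.48 and 0.66 at 48 h, against 0.34 and 0.49. A difference between 0.5 and 1.5 was found in 23 of 26 run transcripts in BIS18 and 21 of 26 in BIS14 at 18 h, and in 22 and 18 of 27 at 48 h. In BIS3 it was found in 3 and 2, and in GB2 in 3 and 4.

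**Figure D3:**
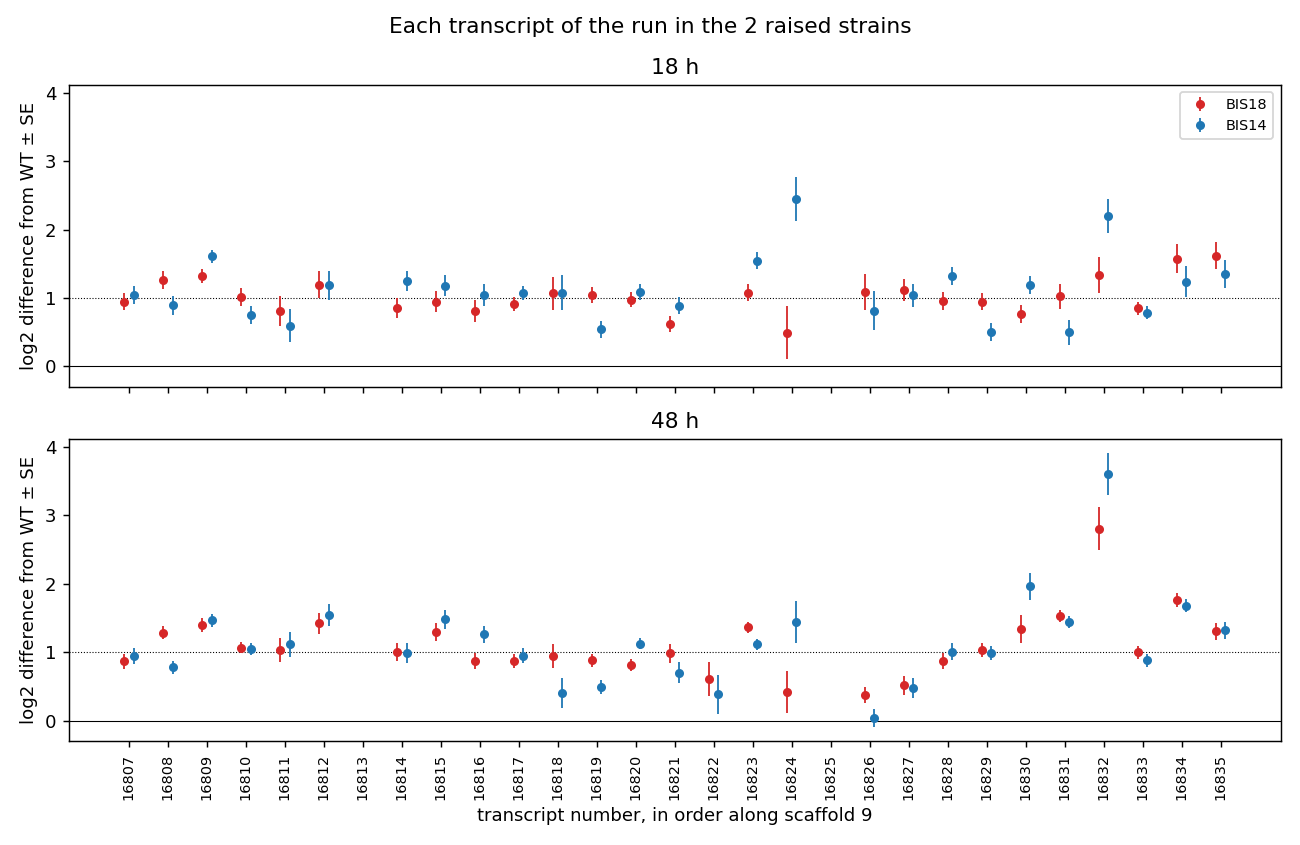
Log2 difference from WT with its SE for each of the 29 entries of the run in BIS18 and BIS14 at 18 h (top) and 48 h (bottom), in order along the scaffold, with gaps for entries too low to test and a dotted line at a doubling. Most points lie near 1, transcript 16824 separates the strains (0.49 and 2.44 at 18 h), and 16832 reaches 2.81 and 3.60 at 48 h.

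Counts of calls describe the same choice and support nothing further. At a Benjamini-Hochberg adjusted p under 0.05 from the edgeR quasi-likelihood fit of every transcript, 23 of 43 tested members were called higher in BIS18 at 18 h, where 0.475% of all transcripts were. Of the 35 entries called higher in BIS18 at that time, 23 were in the run, 2 were cassette entries and 10 were on other scaffolds. In BIS14 26 members were called higher at 18 h (10.5% of all transcripts), in BIS3 9 (17.3%) and in GB2 8 (26.3%). Of 46 members tested at 48 h, BIS18 had 27 called higher (11.1%), BIS14 28 (19.5%), BIS3 7 (13.5%) and GB2 10 (22.2%). The run transcripts not called higher were 16811, 16824 and 16826 in BIS18 and 16811, 16826 and 16831 in BIS14 at 18 h. At 48 h they were 16822 and 16824 in BIS18 and 16818, 16822 and 16826 in BIS14.

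No tested transcript of the run was below 0.40 in its mean difference over both strains and times, or changed sign between them. The transcripts that followed least in a single strain or time were picked after their values were seen. Transcript 16824 (949910-950936, - strand) was called higher at both times in BIS14 and at neither in BIS18, where its SE was wide. At 18 h it had 13.3, 14.99 and 12.8 CPM in BIS18 and 52.8, 49.9 and 57.8 CPM in BIS14. The WT libraries reached from 3.53 to 19.7 CPM (median 8.74), with replicates 1 to 3 at 17.9, 19.7 and 11.99 and replicates 4 to 6 at 4.27, 3.53 and 5.50. BIS18 lay inside the WT range and BIS14 above it, with differences of 0.49 ± 0.38 and 2.44 ± 0.32. In BIS3, which lacks the raised run, it had 30.9, 40.5 and 30.0 CPM, also above every WT library, and in GB2 6.45, 5.82 and 11.6 CPM. This transcript overlaps 16823 by 27 bases at its end and 16825 by 102 bases at its start. The kit does not mark the strand and the strand setting of the counting is not given in the sources used here, so reads in such overlaps cannot be told apart.

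Transcript 16826 (951850-952984, - strand) followed at 18 h and hardly at 48 h. At 18 h it had 27.8, 22.7 and 40.4 CPM in BIS18, 13.0, 28.97 and 32.0 CPM in BIS14 and 10.6 to 17.9 CPM (median 14.4) in WT. At 48 h it had 59.1, 55.3 and 57.7 CPM in BIS18, 48.7, 35.8 and 52.3 CPM in BIS14, and 39.3, 41.1, 42.5, 46.4 and 49.3 CPM in WT. All BIS18 libraries lay above WT at both times, and BIS14 overlapped with WT at both. The differences went from 1.09 ± 0.26 to 0.38 ± 0.12 in BIS18 and from 0.81 ± 0.29 to 0.03 ± 0.13 in BIS14. In BIS3 and GB2 at 48 h the transcript stood at -0.41 ± 0.13 and -0.52 ± 0.13 against WT.

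Its neighbour 16827 had 0.52 ± 0.14 in BIS18 and 0.48 ± 0.15 in BIS14 at 48 h, after 1.12 ± 0.16 and 1.04 ± 0.17 at 18 h. In GB2 it stood at -0.51 ± 0.15 at 48 h. Other values under 0.5 were those of 16831 in BIS14 at 18 h (0.496 ± 0.187) and of 16818 (0.41 ± 0.22), 16819 (0.49 ± 0.11) and 16822 (0.38 ± 0.29) in BIS14 at 48 h. Transcripts 16818 and 16819 overlap by 372 bases on the same strand, so that reads in the overlap cannot be told apart.

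Some transcripts stood well above a doubling. Transcript 16832 (966133-967823, - strand) had 83.5, 80.6 and 91.7 CPM in BIS18, 266, 126 and 74.95 CPM in BIS14 and 28.4 to 41.3 CPM (median 32.7) in WT at 18 h. At 48 h it had 343, 372 and 301 CPM in BIS18, 251, 1158 and 345 CPM in BIS14, and 47.7, 39.1, 52.7, 46.0 and 53.2 CPM in WT. No library of these strains overlapped with WT, and the BIS14 libraries were far apart from each other. Its differences were 1.34 ± 0.26 and 2.81 ± 0.31 in BIS18 and 2.20 ± 0.25 and 3.60 ± 0.31 in BIS14. It was also high where the run as a whole was not, with 88.4, 94.3 and 84.7 CPM in BIS3 and 168, 220 and 270 CPM in GB2 at 48 h. It shares 25 bases with the end of 16831, whose level in WT was 818 FPKM at 18 h against 21.2 FPKM for 16832.

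Transcripts 16834 and 16835, the last of the run, stood at 1.58 ± 0.22 and 1.62 ± 0.19 in BIS18 at 18 h, and at 1.24 ± 0.22 and 1.35 ± 0.20 in BIS14. For 16834 (970377-971470, - strand) the libraries had 308, 302 and 383 CPM in BIS18, 171, 271 and 342 CPM in BIS14 and 102 to 127 CPM (median 107) in WT. At 48 h its differences were 1.76 ± 0.10 in BIS18 and 1.68 ± 0.10 in BIS14, and all these libraries lay above WT. The longest entry, 16809 (909559-916766, - strand), had 561, 548 and 531 CPM in BIS18, 730, 670 and 602 CPM in BIS14 and 204 to 255 CPM (median 212) in WT at 18 h. It thus stood at 1.32 ± 0.10 and 1.61 ± 0.10, and at 1.40 ± 0.10 and 1.47 ± 0.10 at 48 h. The shortest entry of the run, 16812 (922394-922799, + strand), stood at 1.20 ± 0.20 in BIS18 and 1.18 ± 0.21 in BIS14 at 18 h and at 1.42 ± 0.15 and 1.55 ± 0.16 at 48 h.

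**Figure D4:**
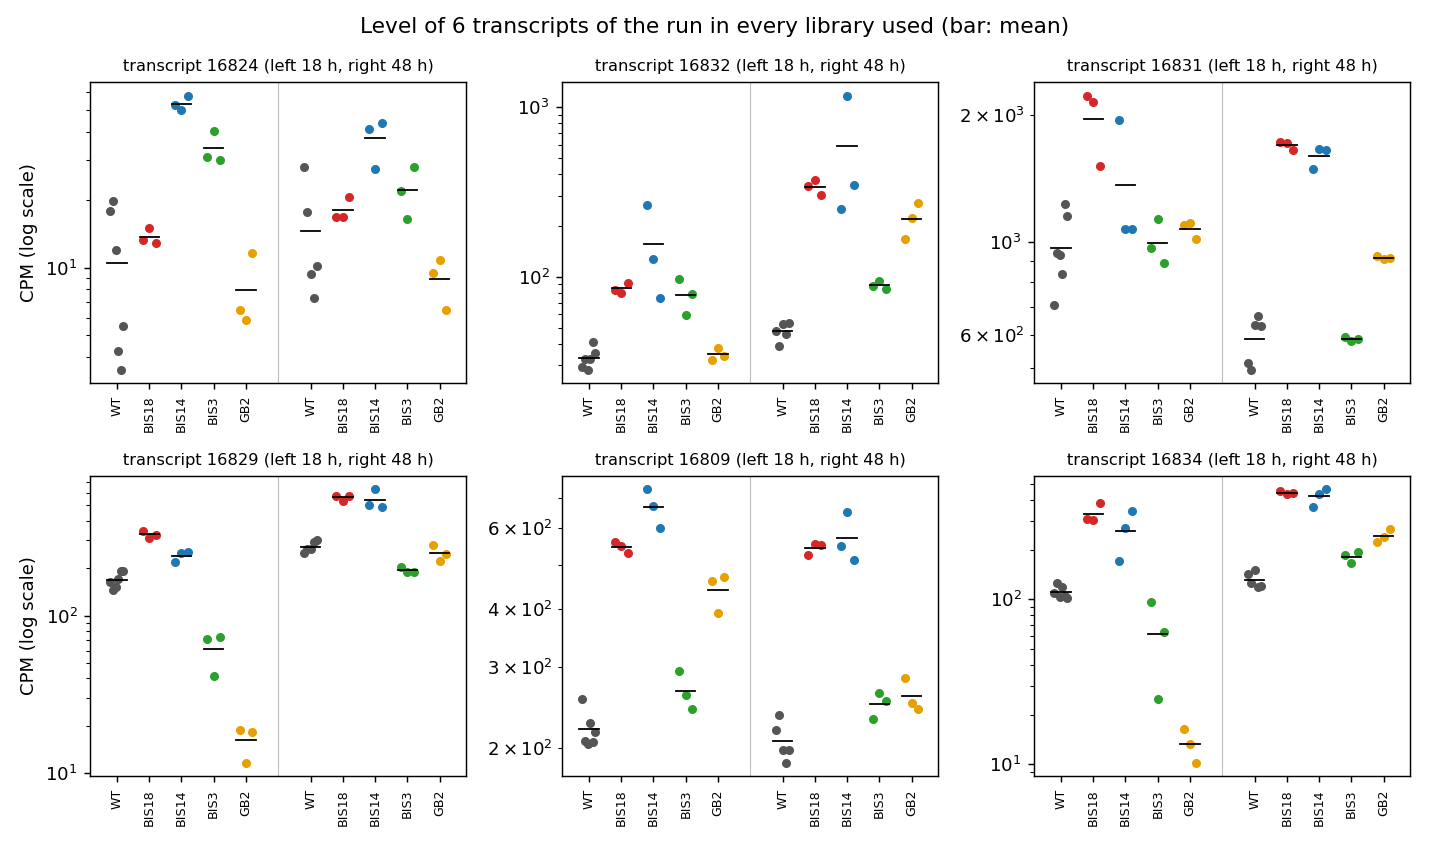
CPM on a log scale of 6 transcripts of the run in each library used, with 18 h on the left and 48 h on the right of each panel and bars for the group means. Transcript 16824 is low in BIS18 and high in BIS14 and BIS3, and 16829 and 16834 are raised in BIS18 and BIS14 and lie below WT in GB2 at 18 h, at 11.6 to 18.8 and 10.2 to 16.4 CPM.

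By level in WT at 18 h the segment was led by 16831 (964887-966157, + strand) with 818 FPKM, followed by 16800 with 237, 16823 with 129, 16833 with 121 and 16834 with 109 FPKM. All but 16800 lie in the run. Transcript 16831 had 2223, 2156 and 1514 CPM in BIS18 at 18 h, 1947, 1073 and 1075 CPM in BIS14 and 706 to 1233 CPM (median 935) in WT. BIS18 was above WT, and 2 of the 3 BIS14 libraries were within the WT range. At 48 h BIS18 had 1732, 1715 and 1651 CPM, BIS14 1486, 1666 and 1652 CPM, and WT 515, 496, 632, 665 and 631 CPM. Both strains were then far above WT, by 1.53 ± 0.09 and 1.44 ± 0.09. Transcript 16833 (968121-970326, - strand) stayed near a doubling, at 0.85 ± 0.09 and 1.00 ± 0.10 in BIS18 and 0.78 ± 0.10 and 0.88 ± 0.10 in BIS14.

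Transcript 16823 (948369-949936, + strand) stood above WT in all 4 engineered strains at 18 h. It had 422, 417 and 351 CPM in BIS18, 667, 497 and 484 CPM in BIS14, 348, 487 and 420 CPM in BIS3 and 431, 503 and 442 CPM in GB2. The WT libraries had 160 to 215 CPM (median 189), below every engineered library. The differences were 1.07 ± 0.13, 1.54 ± 0.12, 1.15 ± 0.13 and 1.28 ± 0.12 in that order. By 48 h BIS18 stood at 1.36 ± 0.08 and BIS14 at 1.11 ± 0.09, and the strains without the run at 0.28 ± 0.09 (BIS3) and 0.53 ± 0.09 (GB2).

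BIS14 and BIS18 were compared directly. The choice of the segment did not use this difference itself, but it took both strains as raised. At 18 h 6 of 43 tested members differed, 5 higher and 1 lower in BIS14, where 12.1% of all transcripts differed. The median difference over the run was 0.05. Both strains were raised by choice and both set the ends of the run, so this median is a description. Transcript 16824, whose libraries are given above and do not overlap, was higher in BIS14 by 1.95 ± 0.37 (edgeR adjusted p = 0.0033). Transcript 16819 (938778-941142, - strand) had 88.2, 91.5 and 83.3 CPM in BIS18 and 55.4, 62.8 and 67.9 CPM in BIS14, lower by 0.50 on the log2 scale (-0.50 ± 0.13, edgeR adjusted p = 0.021). In BIS3 and GB2 16819 had 18.2 to 26.5 and 25.8 to 26.6 CPM, below the 35.96 to 48.8 CPM of WT. Higher in BIS14 were also 16842 (0.56 ± 0.16, edgeR adjusted p = 0.026) and 16801 (1.08 ± 0.32, 0.036), both outside the run, and in it 16823 (0.47 ± 0.15, 0.043) and 16832 (0.86 ± 0.28, 0.048). Of these calls, 16824 held without any single library, and only 1 call was left without BIS18 replicate 1 or replicate 2 or when only the groups compared were fitted. In BIS14 replicate 1, the members outside the run had a level of -0.19, against 0.21 and 0.10 in the other 2 libraries of BIS14 at 18 h.

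At 48 h 10 of 46 tested members differed between BIS14 and BIS18, 5 in each direction, where 9.79% of all transcripts did. Transcript 16808 (907677-909390, - strand) had 221, 226 and 198 CPM in BIS18 and 155, 143 and 154 CPM in BIS14, against 81.1, 72.4, 89.9, 97.3 and 95.1 CPM in WT. All libraries of BIS14 lay between those of WT and those of BIS18 (-0.51 ± 0.11, edgeR adjusted p = 0.0070). In the run 16819 was again lower in BIS14 (-0.39 ± 0.11, 0.035), and 16820 (0.31 ± 0.10, 0.043) and 16824 (1.02 ± 0.33, 0.0496) were higher. Outside it 16839 (-0.78 ± 0.17, 0.0072) and 16844 (-0.60 ± 0.15, 0.014) were lower, and 16800 (0.46 ± 0.11, 0.013) and 16801 (0.65 ± 0.18, 0.030) higher. The remaining calls were 16804 (-0.57 ± 0.16) and 16799 (0.48 ± 0.14). The count was 2 without BIS14 replicate 2, 5, 3 and 3 without BIS18 replicates 1, 2 and 3 in turn, and 0 with WT replicate 2 kept, which entered the shared estimate of the spread. In that edgeR fit 10 members had an unadjusted p under 0.05.

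GB2 and BIS3, which both lack the raised run, differed in 13 of 43 tested members at 18 h, 6 higher and 7 lower in GB2, where 29.1% of all transcripts differed. Transcript 16829 (958557-960459, - strand) had 70.6, 41.3 and 73.3 CPM in BIS3, 18.8, 11.6 and 18.4 CPM in GB2 and 146 to 191 CPM (median 167) in WT. The 3 strains did not overlap, and GB2 was below BIS3 (-1.89 ± 0.22, edgeR adjusted p = 4.7e-06). In BIS18 the same transcript had 342, 312 and 326 CPM and in BIS14 217, 248 and 254 CPM, above WT.

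Transcripts 16834 and 16835 were also lower in GB2 than in BIS3 at 18 h. The former had 97.0, 24.8 and 63.6 CPM in BIS3 and 16.4, 13.3 and 10.2 CPM in GB2 (-2.19 ± 0.38, edgeR adjusted p = 0.00026). The latter had 50.3, 15.7 and 36.2 CPM in BIS3 and 5.28, 8.32 and 9.52 CPM in GB2 (-2.15 ± 0.37, 0.00027). For both, all GB2 libraries lay below all of BIS3 and WT. The BIS3 libraries lay below WT for 16834 and overlapped with WT for 16835, where BIS3 differed from WT by -0.39 ± 0.25. Transcript 16809 was higher in GB2, with 460, 393 and 469 CPM against 294, 260 and 243 CPM in BIS3 (0.73 ± 0.12, 0.00016). Outside the run 16841 (989093-990892, + strand) was higher, with 109, 131 and 108 CPM against 53.8, 76.0 and 51.2 CPM (0.93 ± 0.19, 0.00093). The other calls in GB2 were 16824 (-2.07 ± 0.44), 16801 (-1.28 ± 0.35), 16832 (-1.17 ± 0.33) and 16800 (-0.61 ± 0.18), which were lower, and 16842 (0.65 ± 0.16), 16827 (0.60 ± 0.22), 16830 (0.49 ± 0.17) and 16821 (0.44 ± 0.15), which were higher.

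At 48 h 12 of 46 tested members differed between GB2 and BIS3, 5 higher and 7 lower in GB2, where 24.1% of all transcripts did. Transcript 16831 had 595, 580 and 587 CPM in BIS3 and 926, 912 and 913 CPM in GB2 (0.64 ± 0.11, edgeR adjusted p = 0.00024), without overlap. BIS3 was within the WT range there and GB2 above it. Transcript 16832 was higher by 1.30 ± 0.36 (0.011), 16834 by 0.42 ± 0.12 (0.011) and 16829 by 0.37 ± 0.12 (0.026), so that 16829, 16832 and 16834 were lower in GB2 than in BIS3 at 18 h and higher at 48 h. Outside the run 16844 was higher (0.63 ± 0.14, 0.0030) and 16801 lower (-0.79 ± 0.18, 0.0035). Lower in GB2 were also 16824 (-1.36 ± 0.39), 16818 (-0.74 ± 0.26), 16842 (-0.64 ± 0.22), 16807 (-0.44 ± 0.14), 16797 (-0.43 ± 0.12) and 16820 (-0.32 ± 0.10). The count was 7 without BIS3 replicate 2 or 3 or GB2 replicate 1 or 3, and 0 with WT replicate 2 kept, where 7 members had an unadjusted p under 0.05 in the edgeR fit.

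Many members changed with time in WT, as most transcripts did. From 18 h to 48 h 29 of 46 tested members changed, 16 rising and 13 falling, where 72.0% of all transcripts changed. The fit did not pair libraries by their number. The largest rises lay at the right end, outside the run. Transcript 16844 had 2.52 to 6.05 CPM (median 4.10) at 18 h and 93.9, 84.2, 101, 92.4 and 97.8 CPM at 48 h, rising by 4.29 ± 0.18 (edgeR adjusted p = 1.5e-20). Transcripts 16845 (3.35 ± 0.37, 7.4e-10) and 16839 (2.74 ± 0.18, 2.7e-15) rose as well. In BIS18 and BIS14 16844 went from 7.75 to 13.5 and 5.63 to 12.5 CPM at 18 h to 98.7 to 115 and 64.5 to 75.8 CPM at 48 h.

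Inside the run 14 of 27 tested transcripts changed in WT, 6 rising and 8 falling, where 72.0% of all transcripts changed. Transcript 16814 (925338-930210, - strand) had 76.3 to 129 CPM (median 94.9) at 18 h and 60.5, 51.5, 57.2, 40.1 and 37.4 CPM at 48 h (-1.20 ± 0.13, edgeR adjusted p = 5.8e-10), without overlap. Transcripts 16821 (-0.93 ± 0.12, 1.9e-08) and 16831 (-0.92 ± 0.14, 3.9e-07) fell too. In BIS18 16814 was also lower at 48 h, with 170, 180 and 180 CPM at 18 h and 96.0, 96.2 and 99.5 CPM at 48 h, and its difference from WT was 0.86 ± 0.14 and 1.00 ± 0.13. In BIS14 it was 1.25 ± 0.14 and 0.99 ± 0.14. Over the run the change of the difference from WT between the time points had a median of 0.07 in BIS18 and -0.05 in BIS14, with extremes of -0.97 and 1.49 in BIS18 and -1.02 and 1.40 in BIS14. It was largest for 16832, at 1.49 ± 0.46 and 1.40 ± 0.46.

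The 21 members outside the run, 11 to its left and 10 to its right, were mixed. In BIS18 the differences of the 17 tested at 18 h ranged from -0.58 to 1.22, and those of the 19 tested at 48 h from -0.91 to 0.45. In BIS14 they ranged from -0.52 to 1.11 and from -0.99 to 0.91. At the limits of the rule, 16796 (881221-882082) was the first member and stood at 0.02 ± 0.42 in BIS18 and -0.49 ± 0.49 in BIS14 at 18 h, and 16795, which starts just before, at 0.43 ± 0.43 and 0.62 ± 0.45. The last member, 16845 (999167-1002495), stood at 0.26 ± 0.21 and 0.90 ± 0.21 at 48 h, and 16846, just beyond, at -0.30 ± 0.13 and 0.18 ± 0.13. The limits therefore lay well outside the raised run on both sides.

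Of the members, 7 were too low to test at one or both times. Entries 16803, 16813, 16825 and 16843 were left out at both times, and 16802, 16822 and 16845 at 18 h. Over the 18 libraries at 18 h, 16813 had 4 counts in all, 16843 9, 16803 23 and 16825 24. In the run, 16825 had 8 counts in the 3 BIS18 libraries at 18 h and 7 in the 6 of WT, and at 48 h 26 counts in BIS18 and 47 in 5 of WT. Neighbouring entries overlapped in 8 of 49 pairs of members, by 13 to 372 bases, with 4 of these pairs in the run. The run holds 10 entries on the + strand and 19 on the - strand, 406 to 7208 bases long.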

How the data were processed

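RNA from WT and engineered strains was sequenced as unstranded TruSeq libraries. Reads cleaned with BBTools were aligned by the authors to the IFO0880 genome with BIS added (HISAT2) and assigned to transcripts (featureCounts). Versions, strand setting and the treatment of multiply matching reads are not given in the sources used here. The deposited values are raw counts for 8493 entries in 36 libraries, without normalization, and 0 columns were left unused. WT replicate 2 at 48 h was left out, which left 35 libraries.

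Members and lists were chosen with earlier results of these data known. Each time point was fitted with edgeR 4.0.16 in R 4.3.3 (TMM normalization, filterByExpr, quasi-likelihood test, Benjamini-Hochberg adjustment over all transcripts tested, threshold 0.05), on 7375 transcripts at 18 h and 7913 at 48 h, and both times together for the change in WT (7899). SEs are the log2 difference divided by the square root of F. CPM used TMM library sizes, and FPKM the listed length, introns included. Library levels used a pseudocount of 0.5 CPM. The ends of the run are those of the interval of tested transcripts with the largest between-segment sum of squares over the scaffold. The fits and this search were tested on simulated data.

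Named were the transcripts at the ends of the run and their neighbours, tested run members below 0.397, which is 0.5 of the median of the mean differences (none was) or of changing sign, the 5 highest in WT FPKM at 18 h, the 5 with the highest mean difference in the raised strains (mean of at least 10 CPM), up to 5 called in each comparison between strains, the 3 largest rises and falls in WT, and those at the limits of the rule. The gene table at hand was of a different strain and matched 0 identifiers. The genes that the study names could not be linked to these numbers.

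Same-numbered WT libraries of 18 h and 48 h deviated together (r of 0.123 to 0.241 over 5 pairs). The labels do not name them as pairs, and the main fit did not pair them. With a block for strain and number instead, 29 of 46 tested members changed in WT. Alternatives were other normalizations and filters, DESeq2 1.42.0, other sets of libraries, a block for the replicate number and leaving out single libraries. Other settings for library levels and for the run were added after seeing the data. Figures used Python 3.11.15, numpy 2.4.6, pandas 2.3.3 and matplotlib 3.10.9.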

Additional observations from a re-analysis of the deposited data

Results flagged for a closer look

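Among 58 groups of WT libraries tested for a library far from the others, 3 stood out, and chance gives about 1 in 20. Libraries of the engineered strains were not tested this way. The level of WT replicate 1 at 18 h over all tested members was 0.0593, above the other 5 WT libraries. Transcript 16845 had 4.99 CPM in WT replicate 4 at 18 h, where the other WT libraries had 0 to 1.83 CPM. Transcript 16796 had 13.7 CPM in WT replicate 3 at 48 h, against 6.97 to 8.92 CPM in the other 4.

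For 5 transcripts the libraries of 2 strains differed one way at 18 h and the other way at 48 h without overlap, and the difference between the times was not tested. Transcript 16823 was higher in BIS14 than in BIS18 at 18 h (0.47 on the log2 scale) and lower at 48 h (-0.25). In GB2 against BIS3, 16829 went from -1.89 to 0.37, 16832 from -1.17 to 1.30, 16834 from -2.19 to 0.42 and 16842 from 0.65 to -0.64.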

How the results depend on the processing

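Over all settings of the fits the median log2 difference of the run stayed between 0.97 and 1.05 in BIS18 and 0.99 and 1.16 in BIS14 at 18 h, and 0.98 to 1.06 and 0.99 to 1.07 at 48 h. The 315 values under other settings were medians over all tested members, counts of calls, library levels and ends of the run. Of these, 254 stayed close enough to the main value to count as the same, and 61 did not. Some values near 0 changed sign, such as the GB2 median at 18 h, from -0.009 to 0.052 with no low-count filter. The GB2 library level at 48 h went from -0.064 to 0.22 when taken from summed counts. Among the transcripts named in the comparisons between strains and between times, 0 reversed direction. The median over all tested members, inside and outside the run, moved with which members entered.

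With no low-count filter it was 0.052 for GB2 at 18 h, and 0.49 for BIS18, 0.54 for BIS14 and 0.027 for BIS3 at 48 h. With at least 10 counts in every library it was 0.86, 0.76 and 0.16 at 48 h in that order. With WT replicates 1 to 3 only it was -0.11 for GB2 at 18 h and 0.014 for BIS3 at 48 h, with WT replicates 4 to 6 only 0.84 for BIS18 at 48 h, and with only the groups compared 0.61. With WT replicate 2 at 48 h kept it was 0.56 for BIS18, 0.000164 for BIS3 and -0.11 for GB2, and 0 members differed between BIS14 and BIS18 or between GB2 and BIS3, with 10 and 7 at an unadjusted p under 0.05 by edgeR. DESeq2, without that library, called 9 and 12. With only the groups compared, 1 member differed between BIS14 and BIS18 at 18 h and 6 at 48 h.

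With the replicate number as a block, 3 members differed between BIS14 and BIS18 at 18 h, and the medians were -0.087 for GB2 at 18 h and 0.017 for BIS3 at 48 h. For BIS18 and BIS14 at 18 h the correlations of deviations by number were 0.22, -0.16 and 0.33, which leaves pairing undecided. They were -0.049 to 0.033 for GB2 and WT at 18 h, and -0.081 to -0.0098 for BIS3 and WT at 48 h. The block changed no other count by over 1.5 times.

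Leaving out each library in turn gave 1 to 8 members between BIS14 and BIS18 at 18 h and 2 to 11 at 48 h, and 9 to 13 and 7 to 10 between GB2 and BIS3. At 48 h the medians were 0.53 to 0.80 in BIS18, 0.58 to 0.68 in BIS14, 0.048 to 0.10 in BIS3 and -0.11 to -0.024 in GB2.

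The level per library over all tested members, as a group mean, was 0.78 in BIS14 and 0.85 in BIS18 at 18 h, and 0.66 and 0.76 at 48 h. Over the run alone it was 1.02 in BIS14 and 1.00 in BIS18 at 18 h, and 1.05 in BIS14, 1.02 in BIS18, 0.14 in BIS3 and 0.093 in GB2 at 48 h. From summed counts over all members it was 0.77 in BIS18, 0.15 in BIS3 and 0.13 in GB2 at 18 h, and 0.98 in BIS14, 0.92 in BIS18, 0.082 in BIS3 and 0.22 in GB2 at 48 h. Scaled by library totals over all members it was -0.21 in BIS3 and -0.28 in GB2 at 18 h, and 0.44 in BIS14, 0.62 in BIS18, 0.016 in BIS3 and -0.29 in GB2 at 48 h. For the run, total scaling gave 0.91 in BIS14 and 1.03 in BIS18 at 18 h and 0.84 and 0.89 at 48 h. Summed counts over the run gave 0.99 in BIS14 and 1.05 in BIS18 at 18 h and 1.32 and 1.29 at 48 h. On BIS14 at 48 h alone the run began at 16806. Causes were not tested.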
